A study of Mus musculus with 12 samples.

Results

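The AP-1 transcription factor family was taken as the 10 genes Fos, Fosb, Fosl1, Fosl2, Jun, Junb, Jund, Atf3, Batf and Jdp2, chosen by gene symbol out of 28293 genes in the deposited count table. All 10 were found, and 9 had enough counts to be tested among 13775 genes; Fosb did not. The study compared 2 groups of 6 cultures of wild-type osteoclast precursor cells, grown from marrow of male C57BL/6J mice aged 6 months. M-CSF at 10 ng/ml was given for 3 days before induction and stayed in the medium. The RANKL group received 25 ng/ml RANKL for 24 h, and the RANKL+Dex group received the same RANKL with 10 nM dexamethasone, a synthetic glucocorticoid, so that both groups carried the osteoclast-inducing cytokine. Each group held batches 1 to 6.

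AP-1 is a dimer of basic leucine zipper (bZIP) proteins. JUN proteins pair with one another or with FOS proteins, and the pairs bind the same short DNA elements with different strengths and partners. ATF3, BATF and JDP2 join JUN proteins in dimers that often repress. In the osteoclast lineage, RANKL acts through c-Fos to raise Nfatc1, the transcription factor that drives differentiation, and mice without Fos lack osteoclasts. The glucocorticoid receptor, bound by dexamethasone, is known to bind AP-1 and to hold down AP-1 activity at inflammatory genes.

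With dexamethasone, Jund was higher, and Atf3, Fos and Fosl2 were lower, while Jdp2, the most abundant member per gene length, did not pass the test. With edgeR's quasi-likelihood test and a threshold of 0.05 on the adjusted p, there was 1 rise and there were 3 falls among the 9 tested members, while 5 passed in neither direction, so that 44.4% were called against 15.5% of all tested genes (7.98% higher and 7.55% lower). With the batch number as a block, 2 rose and 3 fell, or 55.6% against 21.8% of all genes, because Jun was called as well. The median log2 fold change of the 9 was −0.07, beside −0.0034 for all tested genes. The fold changes were small, from 1.25-fold higher for Jund to 1.77-fold lower for Atf3. After removal of the trend with transcript GC content and length, 2 members rose and 2 fell, and over all genes the split of 1099 higher and 1040 lower became 1375 higher and 732 lower.

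**Figure D1:**
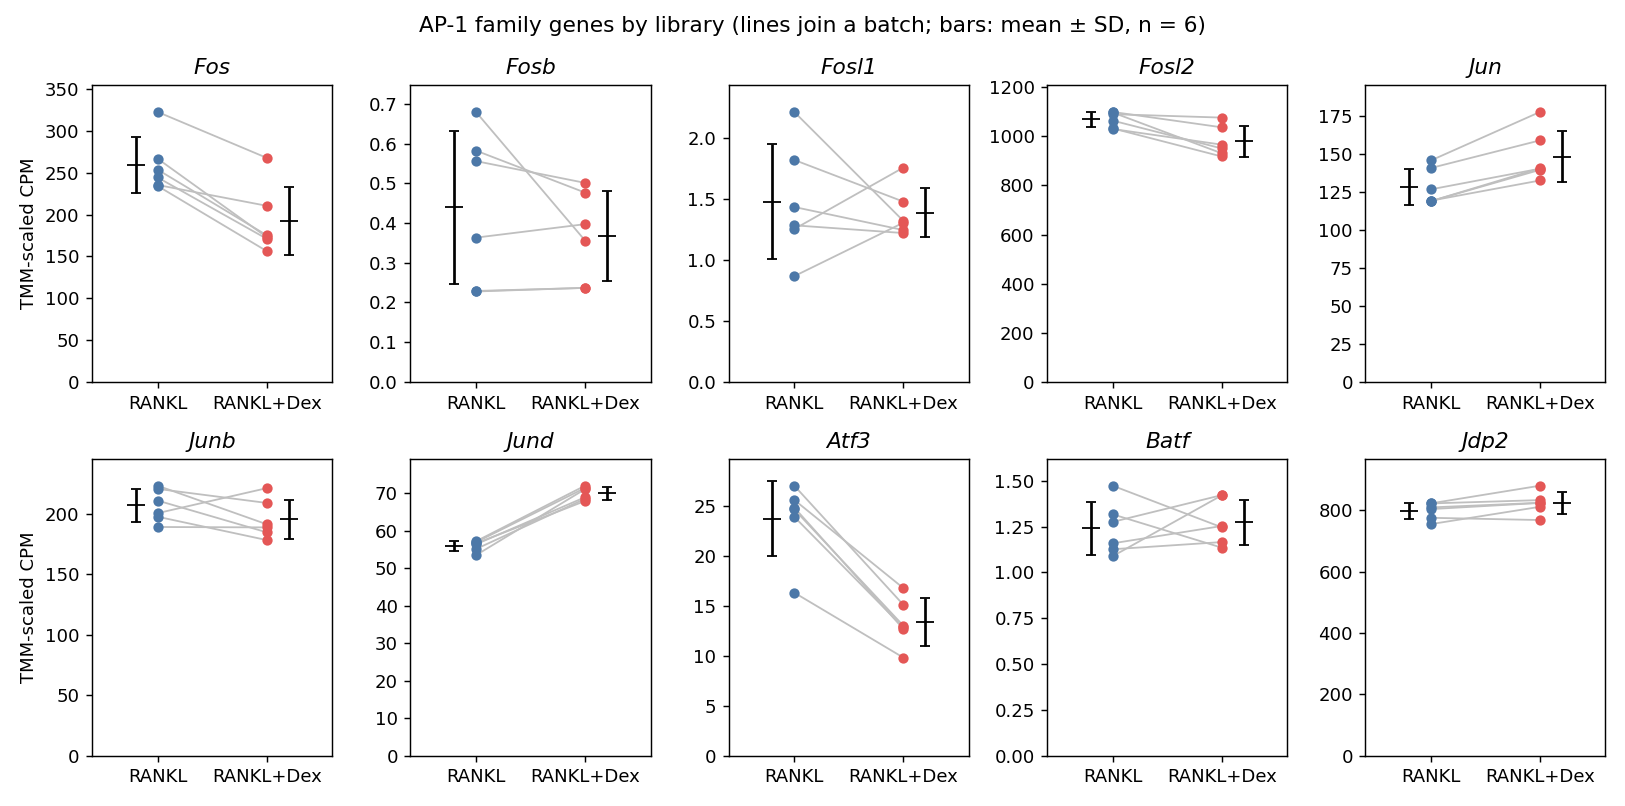
Level (CPM, read counts relative to the TMM-scaled library total, vertical axes starting at 0) of the 10 AP-1 genes in each library, with grey lines joining the libraries of a batch and black bars for mean ± SD (n = 6 per group). The RANKL+Dex points of Jund all lie above the RANKL points, every line of Atf3, Fos and Fosl2 falls, and every line of Jun rises.

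The promoter stretches of Fos, Jun and Atf3 are shown because these inducible members had the same direction in every batch, down for Fos and Atf3 and up for Jun, whose call depended on the fit. They are the 250 bases before the RefSeq transcript start in GRCm38.p6, written 5′ to 3′ on the gene's strand. They lie at chr12:85473640-85473889 on the plus strand for Fos, chr4:95052223-95052472 on the minus strand for Jun and chr1:191183334-191183583 on the minus strand for Atf3. Capitals mark TGACGT (the core of the cAMP response element, CRE, or its reverse complement ACGTCA), TGACATCA (a variant AP-1 element) and TATAAA.
Fos: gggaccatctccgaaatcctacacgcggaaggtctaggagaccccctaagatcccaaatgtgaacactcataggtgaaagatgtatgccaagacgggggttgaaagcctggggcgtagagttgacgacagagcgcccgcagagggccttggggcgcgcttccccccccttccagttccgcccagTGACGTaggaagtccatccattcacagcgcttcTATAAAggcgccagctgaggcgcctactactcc
Jun: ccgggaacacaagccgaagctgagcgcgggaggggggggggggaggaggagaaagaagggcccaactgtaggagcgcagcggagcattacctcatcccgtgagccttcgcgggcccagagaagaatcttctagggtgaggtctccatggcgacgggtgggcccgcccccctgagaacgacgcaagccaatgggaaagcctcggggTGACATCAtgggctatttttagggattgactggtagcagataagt
Atf3: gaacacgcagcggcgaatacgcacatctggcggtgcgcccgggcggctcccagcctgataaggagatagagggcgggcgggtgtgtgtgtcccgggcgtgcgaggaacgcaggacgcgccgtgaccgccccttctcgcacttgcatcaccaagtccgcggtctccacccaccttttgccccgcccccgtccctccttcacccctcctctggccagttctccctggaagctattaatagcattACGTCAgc

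RefSeq windows were matched for 9 of the 10 members, all except Fosl1, and Jdp2 had more than 1. The RefSeq start lay 1210 bases from the nearest GENCODE M21 transcript start for Jund and 299 bases from it for Fosl2, against at most 78 bases for the others, so those windows may not cover the start used here. The Atf3 window lies at an inner start, 34.7 kb from the outermost one. Both strands were searched. TGACGT was found 66 bases before the start in Fos, 8 bases before it in Atf3 (as ACGTCA, counted from its first base), 98 in Batf and 114 in a window of Jdp2, and 6.47% of 32851 windows of the same length held it. TGACATCA was found in Jun, 45 bases before the start, and in 2.93% of all windows. The consensus AP-1 element TGACTCA (4.46% of all windows), the full CRE TGACGTCA, which contains TGACGT (1.55%), and the glucocorticoid response element core AGAACA (16.1%) were in no member's window. TATAAA was in the Fos window, as in 12.4% of all.

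FOS genes encode proteins that bind DNA only in a dimer with a JUN protein. Fos, the immediate-early member that RANKL needs to form osteoclasts, lies on chromosome 12 (ENSMUSG00000021250, 85520664 to 85524047, plus strand; gene coordinates are those of the deposited table, GRCm39). Its RANKL libraries ran from 234 to 323 CPM with a median of 249.1, and its RANKL+Dex libraries from 156 to 268 with a median of 174. Most dexamethasone libraries were lower, but the groups overlapped, since batch 1 was the highest library of both groups. The Fos mean was 259.6 ± 33.3 CPM in RANKL (SD, n = 6) and 192 ± 41.1 CPM with dexamethasone. This 1.35-fold fall passed the test (log2 fold change −0.43 ± 0.11 SE, edgeR adjusted p = 0.0137), and all 6 batches shared its direction. The within-batch ratio ran from 0.649 in batch 6 to 0.894 in batch 2. The Fos call ended in edgeR without batch 3 (adjusted p = 0.0551) or batch 6 (0.0633); with batch as a block its adjusted p was 6.8e-06.

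Fosl2, which encodes Fra-2, a FOS protein with a role in osteoclast size and survival, held the most counts of the family and changed least among the called members. It lies on the plus strand of chromosome 5 (ENSMUSG00000029135, 32293145 to 32315186). Levels ran from 1030 to 1099 CPM in RANKL (median 1077) and from 918 to 1076 CPM in RANKL+Dex (median 958). The ranges overlapped through batches 1 and 3, whose dexamethasone libraries stayed at 1076 and 1037 CPM. The Fosl2 means were 1069 ± 31.8 and 979.8 ± 62.9 CPM (n = 6), a log2 fold change of −0.13 ± 0.04 whose direction all 6 batches shared (edgeR adjusted p = 0.0435, and 0.00965 with the block). The call held in 12 of 27 alternative settings. It ended without a filter on low counts (adjusted p = 0.0557) and after removal of the GC and length trend, where the log2 fold change was −0.05 (0.314). It also ended without RANKL replicate 1, 2, 3 or 6 and without RANKL+Dex replicate 2, 4, 5 or 6, with adjusted p between 0.0769 and 0.0954, and without any of batches 2 to 6 (0.0768 to 0.164).

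The other FOS genes were near the limit of detection. Fosl1 encodes Fra-1, which can stand in for c-Fos in osteoclast formation (ENSMUSG00000024912, chromosome 19, 5497575 to 5505974). Its mean was 1.48 ± 0.473 CPM without dexamethasone and 1.39 ± 0.202 CPM with it (n = 6). Its libraries ran from 0.865 to 2.21 CPM in RANKL (median 1.36) and from 1.218 to 1.75 in RANKL+Dex (median 1.31), with higher and lower dexamethasone values among the batches. The edgeR log2 fold change was −0.07 ± 0.21 (adjusted p = 0.867), with a 95% interval from −0.52 to 0.37. The gene overlaps Ccdc85b, on the other strand, by 2767 bases, so reads of the pair may be mixed. Fosb, an immediate-early gene (ENSMUSG00000003545, chromosome 7, 19036621 to 19043976, minus strand), had 56 reads in RANKL and 46 in RANKL+Dex, summed over 6 libraries each. These gave 0.440 ± 0.193 and 0.367 ± 0.114 CPM, a difference within the spread (exact two-sided permutation p = 0.435, n = 6).

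**Figure D2:**
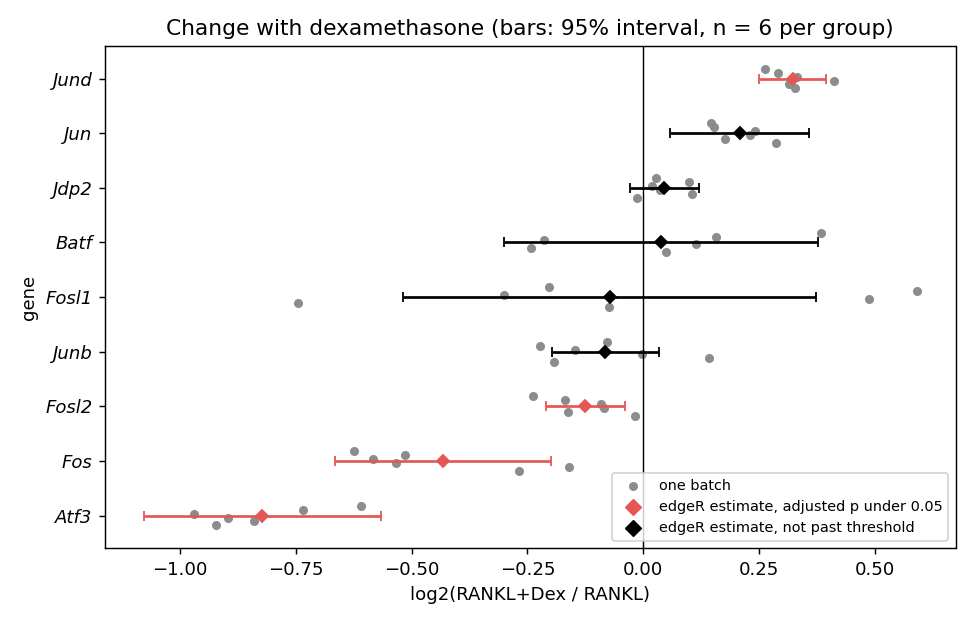
Log2 ratio of RANKL+Dex to RANKL (horizontal axis) for the 9 tested AP-1 genes. Grey points are the 6 batches and diamonds the edgeR estimates with 95% intervals, red where the adjusted p is under 0.05. Jund (0.32) and Jun (0.21) lie to the right of 0 in every batch, and Fosl2 (−0.13), Fos (−0.43) and Atf3 (−0.82) to the left in every batch.

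JUN genes encode the partner common to AP-1 dimers. Jund, whose product is the steadily expressed JUN protein and restrains growth in several cell types, had the smallest p of the family, ranked 80 of 13775 genes. It lies on the plus strand of chromosome 8 (ENSMUSG00000071076, 71151599 to 71153265). RANKL libraries ran from 53.4 to 57.1 CPM (median 56.5) and RANKL+Dex libraries from 67.9 to 72.0 CPM (median 69.97). All 6 dexamethasone libraries were above all 6 controls, which was the case for no other member. Among all tested genes the groups were apart in 7.01%, with 3.84% higher and 3.17% lower. The mean rose from 55.9 ± 1.41 CPM in RANKL to 69.9 ± 1.72 with dexamethasone (n = 6), 1.25-fold (log2 fold change 0.32 ± 0.03, 95% interval 0.25 to 0.39, edgeR adjusted p = 6.7e-06). The within-batch ratio ran from 1.1997 in batch 6 to 1.33 in batch 3.

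Jun encodes c-Jun, the immediate-early JUN protein (ENSMUSG00000052684, chromosome 4, 94937271 to 94940459, minus strand). Its libraries ran from 119 to 145 CPM in RANKL (median 123) and from 132 to 177 CPM in RANKL+Dex (median 140). Batches 1 and 2 were the highest of each group, so the groups overlapped although every batch rose, by ratios of 1.11 to 1.219. The means were 128 ± 11.96 and 148 ± 16.8 CPM (n = 6), with a log2 fold change of 0.21 ± 0.07 that did not pass (edgeR adjusted p = 0.0565). With batch as a block it passed (adjusted p = 0.00033), as it did in DESeq2 (0.0316), without a filter (0.0256) and after removal of the GC and length trend (0.0162). It also passed without RANKL replicate 1 (0.0269), RANKL replicate 2 (0.0424), RANKL+Dex replicate 5 (0.0337) or batch 1 (0.0329). Jun overlaps the antisense gene Junos by 689 bases, and no strand marking is stated; Junos was at 3.71 ± 0.694 CPM without and 3.58 ± 0.571 CPM with dexamethasone.

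Junb encodes a JUN protein with weaker activating power than c-Jun on simple AP-1 sites (ENSMUSG00000052837, chromosome 8, 85701113 to 85705347, minus strand). Its level ran from 189 to 223 CPM in RANKL (median 206) and from 178 to 221 CPM in RANKL+Dex (median 190.0). The groups overlapped over most of their range, with 5 of 6 batches lower and batch 2 higher. The log2 fold change was −0.08 ± 0.05 (edgeR adjusted p = 0.350, 95% interval −0.20 to 0.03). Junb overlaps Prdx2, a peroxiredoxin gene that averaged 224 ± 5.58 CPM without and 234 ± 7.45 CPM with dexamethasone, by 351 bases at their 3′ ends.

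Atf3, a stress-inducible bZIP gene whose product represses many inflammatory promoters, fell most. It lies on chromosome 1 (ENSMUSG00000026628, 190902493 to 190950236, minus strand). RANKL libraries were between 16.4 and 27.1 CPM (median 24.8) and RANKL+Dex libraries between 9.83 and 16.8 CPM (median 12.9). RANKL replicate 5, at 16.4 CPM, was the lowest control by a wide gap, and without it the ranges would not have overlapped. Its batch partner was also the lowest of the dexamethasone group. The log2 fold change was −0.82 ± 0.12 (edgeR adjusted p = 0.000195), a 1.77-fold fall, and the within-batch ratio ran from 0.511 to 0.655. Its call and that of Jund held in all 27 alternative settings.

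Jdp2 and Batf encode small bZIP proteins that dimerize with JUN proteins. Jdp2 is required for normal osteoclast formation in mice. The RANKL libraries lay between 755 and 822 CPM around a median of 806 (mean 798 ± 27.3, n = 6), and the RANKL+Dex libraries between 768 and 879.9 around 824 (mean 823 ± 36.1). The ranges overlapped, and 5 of 6 batches were slightly higher (log2 fold change 0.05 ± 0.04, edgeR adjusted p = 0.437, 95% interval −0.03 to 0.12). Batf, known from T and B lymphocytes, was near the limit of detection, at 1.24 ± 0.144 and 1.27 ± 0.123 CPM (log2 fold change 0.04 ± 0.16, adjusted p = 0.912, 95% interval −0.30 to 0.38). T and NK cell markers had counts for 7 of 10 genes and summed to between 3.28 and 6.54 CPM in RANKL and between 2.67 and 5.11 CPM in RANKL+Dex. The most abundant was Trac, and Cd3d held 2 counts over all libraries; the part of such cells in the Batf level was not tested. Fos, Jdp2 (ENSMUSG00000034271, 85645801 to 85686652) and Batf (ENSMUSG00000034266, 85733443 to 85755861) lie on the same strand within 235.0 kb of chromosome 12, with Fos falling and its neighbours not passing the test. Jdp2 overlaps Gm47863, on the other strand, by 165 bases.

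Levels were set beside each other as CPM per kb of exons, with exon lengths from GENCODE M21. These lengths join all annotated exons of a gene (2148 bases for Jdp2 and 9680 for Fosl2), whichever transcripts the cells express. The order and the shares of the family depend on them. Jdp2 stood first, at 371 ± 12.7 CPM per kb without dexamethasone and 383 ± 16.8 with it. In RANKL, Fosl2 (110 ± 3.29) and Fos (110 ± 14.1) followed with overlapping libraries, then Junb (89.95 ± 5.88), Jun (40.2 ± 3.75), Jund (33.5 ± 0.846) and Atf3 (11.04 ± 1.76 CPM per kb), each apart from the next. Batf (0.882 ± 0.103) and Fosl1 (0.726 ± 0.233) overlapped, and Fosb (0.0704 ± 0.0310 CPM per kb) was last. In RANKL+Dex, Fos (81.8 ± 17.5) overlapped both Fosl2 (101 ± 6.50) and Junb (85.0 ± 7.06), and Jund (41.9 ± 1.03) reached the range of Jun (46.4 ± 5.28), from which it was separate without dexamethasone.

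**Figure D3:**
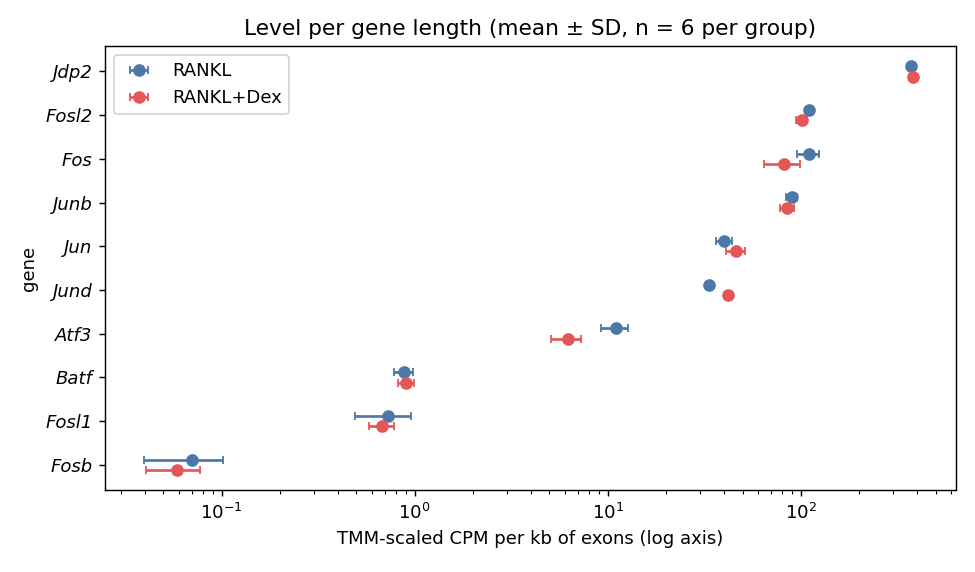
Level of each AP-1 gene as TMM-scaled CPM per kb of exons (log axis), mean ± SD of 6 libraries per group, in the order of the RANKL means. Jdp2 stands first at 371 in RANKL, and Jund at 41.9 comes close to Jun at 46.4 in RANKL+Dex.

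As a share of the summed family level per kb, FOS genes made up 28.8% ± 1.55 in RANKL (27.3 to 31.5) and 24.6% ± 2.54 in RANKL+Dex (22.5 to 29.4; n = 6). JUN genes made up 21.3% ± 0.822 (19.9 to 22.2) and 23.2% ± 0.874 (22.1 to 24.6), and the remainder was almost wholly Jdp2, at 48.3% ± 1.82 and 51.3% ± 2.90. The ranges of the groups overlapped for FOS and, barely, for JUN. Summed FOS level per kb was lower in 6 of 6 batches and summed JUN level was higher in 5 of 6.

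Members also varied among libraries of 1 group. Over the 12 libraries, as deviations from the group mean, 36 pairs of members were correlated, and 1 pair passed the adjustment. The permutations ignored the batch numbers and treated the 12 libraries as independent. Their p may therefore be too small where libraries of a batch moved together. Jun and Jdp2 moved in opposite directions (Pearson's r = −0.90, permutation p = 0.00027, adjusted p = 0.00972; Spearman's rho = −0.84, permutation p = 0.00268, adjusted p = 0.0965), with r = −0.86 without the 2 libraries farthest from the median of Jun. Fos and Jun moved together (r = 0.82, permutation p = 0.00523, adjusted p = 0.0941; rho = 0.61, permutation p = 0.0440, adjusted p = 0.433), but r was 0.44 without the 2 libraries farthest from the median of Fos. Libraries of batches 1 and 2 were high for Jun in both groups, and those of batch 1 were also the highest for Fos, while RANKL replicate 2 was at 235 CPM, below the Fos mean. Over the 8 libraries of batches 3 to 6, r was −0.70 for Jun and Jdp2 (exact permutation p = 0.118) and 0.32 for Fos and Jun (exact permutation p = 0.455). Over the 6 within-batch ratios, r was −0.72 (exact permutation p = 0.131, adjusted p = 0.674) and 0.24 (exact permutation p = 0.593, adjusted p = 0.850). With 720 arrangements and 36 pairs a single pair could not go below an adjusted p of 0.05. Before adjustment neither relation was under 0.05 over these ratios, and 6 ratios cannot show that a relation is absent.

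**Figure D4:**
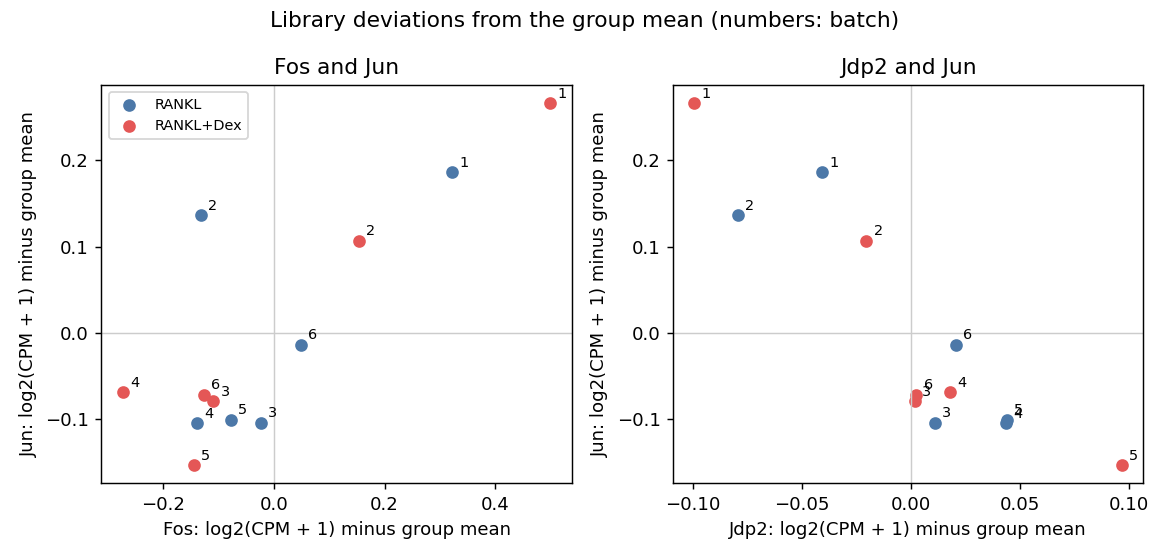
Deviation of log2(CPM + 1) from the group mean for Fos against Jun (left) and Jdp2 against Jun (right), 1 point per library, numbered by batch, blue for RANKL and red for RANKL+Dex. The 4 libraries of batches 1 and 2 are high for Jun and low for Jdp2, and r over all 12 is −0.90 on the right and 0.82 on the left.

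Among 9470 genes of at least 5 CPM, the 5 whose deviations over the 12 libraries were most like those of Fos were Zfp36 (r = 0.96), Iqcc (0.93), Atf7ip (0.89), Egr1 (0.88) and Ago3 (0.88). Zfp36 encodes an mRNA decay factor and Egr1 an immediate-early zinc finger factor. Of these, Ago3 fell with dexamethasone (log2 fold change −0.24, edgeR adjusted p = 0.00551), while Zfp36 (−0.13, adjusted p = 0.542) and Egr1 (0.31, adjusted p = 0.666) did not pass. For Jund the 5 were Impa2 (r = 0.91), Rfx7 (0.88), Rnf25 (0.87), Hbs1l (0.84) and Sppl3 (0.83). Impa2 and Hbs1l rose (0.25 and 0.13, edgeR adjusted p = 0.000136 and 0.0432). These genes were chosen for their r, which is a description. That r treated the 12 libraries as independent and was not repeated without the libraries farthest from the median. For Fos, the libraries of batch 1 were the highest of both groups.

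Genes around AP-1 were taken from lists, and each list's share of called genes stands beside the 15.5% called among all tested genes. Other immediate-early genes, which respond to stimuli without new protein synthesis as Fos and Jun do, split in direction: 2 of 28 tested rose, 6 fell and 20 did neither (28.6% called), with a median log2 fold change of 0.0062. Plk3, which encodes a stress-response kinase, went from 44.8 ± 2.86 up to 74.0 ± 7.46 CPM (n = 6), or by 0.72 ± 0.06 on the log2 scale (edgeR adjusted p = 7.5e-07), and Csrnp1, a nuclear protein gene, rose 1.17-fold (adjusted p = 0.0224). Egr2, a zinc finger factor gene, fell 3.11-fold (adjusted p = 0.000195) and Myc 1.27-fold (adjusted p = 0.000542). With the block 5 rose and 6 fell; without RANKL replicate 2, batch 2 or batch 4 only 1 rose, and without batch 4 only 3 fell.

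Serum response factor (SRF) and its partners drive Fos transcription from the serum response element. The ternary complex factor genes Elk1, Elk3 and Elk4 had log2 fold changes of −0.02, −0.14 and −0.08 and did not pass (edgeR adjusted p = 0.910, 0.0816 and 0.418). Srf itself averaged 99.4 ± 3.98 CPM without and 99.7 ± 6.29 CPM with dexamethasone (log2 fold change 0.01 ± 0.04, edgeR adjusted p = 0.959). Its actin-controlled coactivator genes Mrtfb and Mrtfa fell, Mrtfb from 45.7 ± 4.804 to 37.6 ± 3.71 CPM (−0.28 ± 0.07, adjusted p = 0.0158) and Mrtfa from 82.9 ± 4.20 to 73.4 ± 5.35 CPM (−0.17 ± 0.05, adjusted p = 0.0239; n = 6). They were the 2 that fell among 6 tested (33.3% called). That count was 3 with the block or without RANKL replicate 5. It was 1 without RANKL replicate 4 or 6, without RANKL+Dex replicate 2 or 4, without batch 3, 4 or 5 and after removal of the GC and length trend, and 0 without batch 2 or 6.

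MAP kinases phosphorylate JUN, FOS and ternary complex factors. Of 27 tested genes of the cascade 0 rose, 3 fell and 24 did neither (median log2 fold change −0.07), so that 11.1% were called, below the share of all genes. Mapk14, which encodes p38α, fell from a mean of 129 ± 5.16 CPM to 116 ± 6.45 CPM with dexamethasone (n = 6), with a log2 fold change of −0.15 ± 0.04 (adjusted p = 0.0210 in edgeR), and Map3k4, which acts upstream of p38 and JNK, fell by 0.17 ± 0.05 on the log2 scale (adjusted p = 0.0233). Map2k1 and Map2k7, which encode the kinases of ERK and JNK, had log2 fold changes of 0.08 and 0.07 (adjusted p = 0.219 and 0.299). The count of 3 became 5 without RANKL+Dex replicate 1 and 1 without RANKL replicate 6, RANKL+Dex replicate 4 or batch 5. It was also 1 after removal of the GC and length trend, and 0 without batch 3, 4 or 6.

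Among the remaining bZIP factors, 6 of 31 tested rose, 3 fell and 22 did neither (29.0% called, median 0.00060). Xbp1, a factor of the unfolded protein response, rose from 155 ± 6.08 to 185 ± 9.57 CPM (n = 6) by 0.25 ± 0.04 on the log2 scale (edgeR adjusted p = 0.000397), and Creb3, which encodes a membrane-bound factor cut free for nuclear entry, rose by 0.22 ± 0.04 on the log2 scale (adjusted p = 0.00110). Bach2 (−0.53 ± 0.12, adjusted p = 0.00802) and Mafg (−0.13 ± 0.04, adjusted p = 0.0174), which encode a BACH protein and its small MAF partner, fell. The count of falls was 5 with the block and 1 without RANKL+Dex replicate 4, without batch 2, 3 or 4 or after removal of the GC and length trend. For the turnover of FOS and JUN proteins and mRNAs, 3 of 20 rose, 2 fell and 15 did neither (25.0% called, median 0.0072). Fbxw7, which encodes the ubiquitin ligase subunit that recognises phosphorylated c-Jun, went up from 16.0 ± 0.905 to 19.5 ± 1.16 CPM (n = 6), by 0.29 ± 0.06 on the log2 scale (edgeR adjusted p = 0.00374), and Cops5, which encodes the c-Jun-binding signalosome subunit, rose 1.11-fold (adjusted p = 0.00990). Zfp36l2 (−0.21 ± 0.06, adjusted p = 0.0188) and the deadenylase scaffold gene Cnot1 (−0.14 ± 0.04, adjusted p = 0.0172) fell, a count that was 1 without batch 4 or after removal of the GC and length trend and 0 without batch 3 or 6.

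Genes known as AP-1 targets in osteoclasts or macrophages moved in both directions, with 8 of 27 higher, 8 lower and 11 called neither (59.3% called, median log2 fold change −0.03). Of these targets, Nfatc1, Ctsk, Acp5, Mmp9, Calcr, Oscar, Dcstamp and Itgb3 are also osteoclast lineage markers. The list of 11 lineage markers had 54.5% called, but every called gene in it is one of these shared genes. Its other markers, Ocstamp, Atp6v0d2 and Tnfrsf11a, did not pass (edgeR adjusted p = 0.406, 0.403 and 0.109). The shares of the lists are therefore not independent, and whether the share is particular to AP-1 targets was not tested. Calcr, which encodes the calcitonin receptor, rose 2.79-fold and Ctsk, which encodes cathepsin K, 1.146-fold (edgeR adjusted p = 1.3e-09 and 0.000114). Nfatc1 was called higher too, opposite in direction to Fos (by 0.15 on the log2 scale, edgeR adjusted p = 0.0273). Whether the level of Fos bears on that of Nfatc1 was not tested. Mmp12, which encodes macrophage elastase, fell 4.44-fold (adjusted p = 1.1e-07), and Nqo1, a quinone reductase gene, went down 1.86-fold, from 25.7 ± 5.79 to 13.8 ± 2.83 CPM (n = 6; adjusted p = 0.000500). The 8 falls became 5 without RANKL replicate 3, RANKL+Dex replicate 4, batch 3 or batch 6 and after removal of the GC and length trend, and 3 without batch 4.

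**Figure D5:**
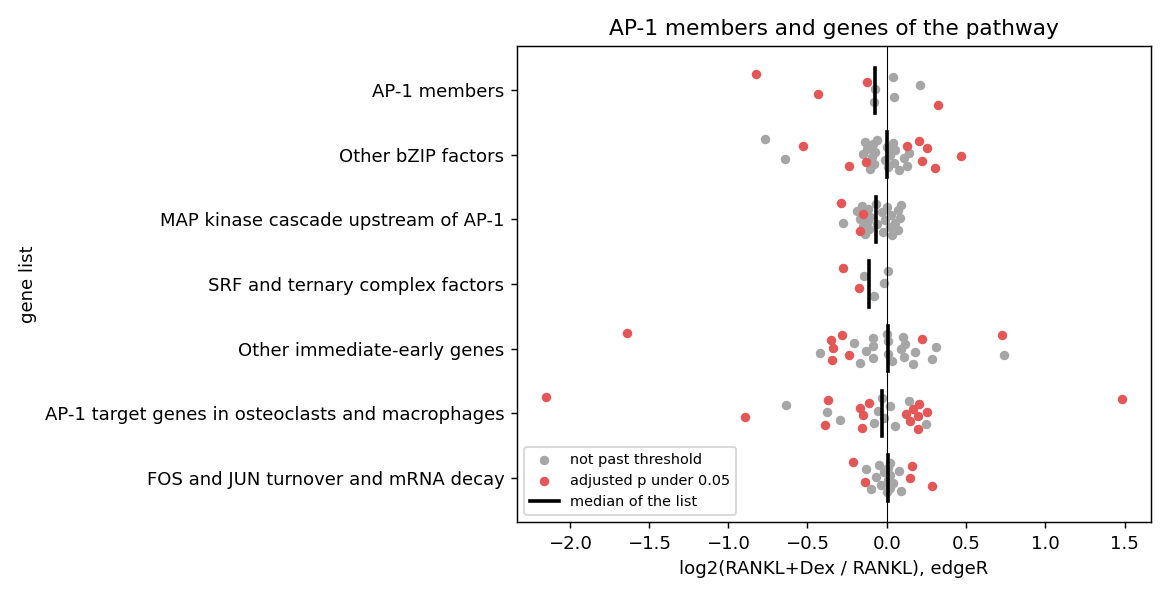
Log2 fold change (RANKL+Dex over RANKL, edgeR) of each tested gene in the AP-1 family and the 6 lists around it, red where the adjusted p is under 0.05, with a black bar at each list's median. The medians lie between −0.11 and 0.01, and red points lie on both sides of 0 in every list except those of the MAP kinase cascade and of SRF.

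Library totals ran from 17674405 to 25451498 counts in RANKL and from 16820193 to 28523595 in RANKL+Dex. The label of osteoclast precursors was checked against 11 lineage markers, all tested, which summed to between 47927 and 52020 CPM in RANKL and between 49504 and 53362 CPM in RANKL+Dex; the most abundant was Mmp9. Although these sums overlapped, 5 of the 11 were called higher with dexamethasone and 1 lower (54.5%, against 15.5% of all tested genes). Macrophage markers summed to between 5777 and 8753 and between 5684 and 8875 CPM, with Lyz2 the most abundant. Of the 8 macrophage markers tested, 0 were called higher and 2 lower (25.0%), or 1 higher and 4 lower with the block. Among markers of other cells, only the neutrophil and dendritic sums lay apart between the groups, and the other ranges overlapped. All 5 tested neutrophil genes were called lower. Lists with overlapping sums still held called genes. Of 7 tested stromal and endothelial genes, 1 was higher and 2 were lower (42.9%), or 1 and 4 with the block. Of 3 tested erythroid and megakaryocyte genes, 1 was higher (33.3%), and with the block 1 was also lower. The 1 tested mast cell and basophil gene was higher. Of 2 tested T and NK genes, 0 were called, or 2 lower with the block. The 9 neutrophil genes, led by Ngp, summed to between 23.0 and 36.8 CPM in RANKL and between 6.41 and 10.1 CPM in RANKL+Dex. The 8 dendritic cell genes, led by Itgax, summed to between 47.0 and 80.7 and between 25.4 and 32.5 CPM, with Cd209a and Siglech at 5 counts each over all libraries. Of the 4 dendritic genes tested, Itgax and H2-Aa fell, while Xcr1 and Zbtb46 did not pass. B cell markers (6 of 8 with counts, Ighm highest) lay between 2.89 and 3.96 and between 1.72 and 3.18 CPM. Mast cell and basophil markers (5 of 6, Gata2 highest) lay between 0.340 and 1.23 CPM in RANKL and between 1.12 and 2.12 CPM in RANKL+Dex. Erythroid and megakaryocyte markers (7 of 8, Pf4 highest) lay between 21.2 and 37.6 and between 24.7 and 44.1 CPM, and 9 stromal and endothelial genes (Col1a1 highest) between 7.65 and 22.5 and between 3.55 and 21.4 CPM. Their part in the changes of the AP-1 genes was not tested, and in bulk RNA fewer cells of a type and less RNA per cell cannot be told apart.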

How the data were processed

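RNA sequencing of poly(A) RNA gave 12 libraries, 6 per group. The authors deposited raw read counts per gene. The submitters' processing notes name the build GRCm39 and, with no roles, the tools DESeq 1.28.0, StringTie 1.3.3b, HISAT2 2.1.0 and FastQC 0.11.5. Which program did the counting, with which annotation and strand setting, was not stated, so reads of overlapping genes may be shared.

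Genes were filtered with filterByExpr (minimum count 10, minimum total 15) and tested with edgeR 4.0.16 (quasi-likelihood F test, TMM factors, two-sided, Benjamini-Hochberg over 13775 genes, threshold 0.05; R 4.3.3, limma 3.58.1, DESeq2 1.42.0). The script was tested on simulated data. CPM are counts over TMM-scaled totals of tested genes. The SE of a log2 fold change was derived from the F statistic. Fosb was tested by exact permutation (924 arrangements, smallest p 0.00216). Correlations used log2(CPM + 1) and 100000 permutations within groups (exact enumeration for fewer than 10 values). Exon lengths are the union of GENCODE M21 exons, and promoters are from RefSeq GRCm38.p6.

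The labels give batch numbers 1 to 6 shared between groups, which pair the libraries by label. Correlations of same-numbered deviations were 0.216, 0.335, 0.0519, 0.0714, 0.466 and 0.0995. The fit without the block is the one reported, with the block beside it where it changes a member's call or moves a count by over 1.5 times. The design text calls the cultures biological replicates without saying whether each had its own mouse. The p-values therefore refer to variation among cultures.

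The members and lists were chosen with earlier results of these data known. The named genes were all members, the 2 higher and 2 lower genes of each other list with the smallest p, the most abundant gene of each marker list and the 5 genes most correlated with Fos and with Jund. Named outside that rule, after their values were seen, were Nfatc1, Cd3d, Cd209a, Siglech, H2-Aa, Xcr1, Zbtb46, Elk1, Elk3 and Elk4. So were the other lineage markers named among or beside AP-1 targets and the genes overlapping members.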

Additional observations from a re-analysis of the deposited data

Results flagged for a closer look

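Among 20 groups of member values (10 genes in each of 2 groups), 2 held a library far from the other 5, where chance flags about 1 group in 20. Fos was at 323 CPM in RANKL replicate 1, a gap of 0.632 of the group's range above the next library; without that library the Fos log2 fold change was −0.36 (edgeR adjusted p = 0.0331), and without both libraries of batch 1 it was −0.48 (adjusted p = 0.000235). Atf3 was at 16.4 CPM in RANKL replicate 5, a gap of 0.709 of the range below the next library, and without it the Atf3 log2 fold change was −0.91 (edgeR adjusted p = 1.0e-05).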

How the results depend on the processing

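Jund and Atf3 kept their direction and call in all 27 alternatives, Fos in 25 and Fosl2 in 12, and Jun was called in 8. No called member changed sign in any alternative. The removal of the GC and length trend and the correlations over batches 3 to 6 were chosen after seeing the data. Members called higher numbered 2 rather than 1 in DESeq2, without a filter on low counts, with the replicate block (the paired fit) and after removal of the GC and length trend, in each case by adding Jun. Leaving out 1 library or 1 batch gave 1 to 2 members called higher and 1 to 3 called lower, the 1 being without batch 3 or batch 6. Over all genes, leaving out 1 library or 1 batch gave 695 to 1290 called higher and 644 to 1203 called lower. The counts lay more than 1.5 times below the reported ones without batch 4 (695 higher, 644 lower), batch 3 (663 lower) and batch 6 (665 lower). With the replicate block, 3000 genes were called, and it changed the call of no member other than Jun. In the lists it moved MAP kinase cascade falls from 3 to 4, SRF falls from 2 to 3, turnover falls from 2 to 3, and AP-1 target rises and falls from 8 to 9 each. Over within-batch ratios, the replicate block for correlations, 0 of 36 pairs of members passed the adjustment. The smallest p over these ratios was that of Fosl2 and Jun (r = 0.96, exact permutation p = 0.00556, adjusted p = 0.2). Next came Fosl2 and Atf3 (r = −0.87, exact permutation p = 0.0167, adjusted p = 0.301). Jun and Atf3 followed (r = −0.85, exact permutation p = 0.0264, adjusted p = 0.317). A single pair could not go below 0.05 there. The 1 pair that passed over the 12 libraries, Jun and Jdp2, had r = −0.72 over these ratios (exact permutation p = 0.131 before adjustment). At these depths Fosb, Fosl1 and Batf had 102, 354 and 311 counts over all libraries, which limits what can be said of them.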
